A study of Mus musculus with 4 samples.

Results

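Tcf20 encodes a large nuclear protein that binds chromatin and acts as a transcriptional coregulator, also known as SPBP. The Tcf20 locus was taken as the minus strand of mouse chromosome 15 from 82638500 to 82743000 on mm9, a length of 104501 nt. It held 86 of the 107319 CLIP-seq peaks in the series, 39 of SRSF1 and 47 of SRSF2. Of these, 84 lay in a single 10 kb window, 82680001 to 82690000, which had been selected on its number of peaks. The locus itself was chosen by position after that density was known, and members were all minus-strand peaks in the locus, whatever host unit the authors had named, and the plus strand of the locus held 0 peaks of either protein.

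The SR proteins, among them SRSF1 and SRSF2, have a domain rich in serine and arginine and bind RNA through RNA recognition motifs. They are best known for binding enhancer elements within exons, from which they promote recognition of the neighbouring splice sites, and several of them also act on messenger RNA after splicing. CLIP-seq crosslinks a protein to RNA with ultraviolet light, precipitates it and sequences the bound fragments, so that a peak is a short stretch of RNA from which fragments were recovered. TCF20 carries a zinc finger region that contacts nucleosomes, and it is related to the coregulator RAI1.

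The samples were mouse embryonic fibroblasts (MEFs) whose SRSF1 or SRSF2 was under tetracycline-repressible control and which were kept without tetracycline. The SRSF1 library came from the SRSF1 line and the SRSF2 library from the SRSF2 line, and both were precipitated with an antibody against an HA tag, so protein and cell line cannot be told apart. One library of each was analysed, with no replicate, and no untagged control or input RNA was used here. SRSF1 CLIP after siRNA treatment, control or directed at SRSF2, was not analysed here. Intervals below are exact (Clopper-Pearson for shares, Poisson for densities) at 95% and cover counting error only, and neighbouring peaks are not independent. The amount of Tcf20 RNA was not measured, so the number of peaks cannot be told apart from the abundance of the transcript.

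The lists held 50983 SRSF1 and 56336 SRSF2 peaks, and read depth is unknown. Among RefSeq-named host units, 4 of 15 fibroblast marker genes had peaks, among them Col1a1 and Col6a1. Of 18 markers of blood, endothelial, epithelial, neuronal and muscle cells only the keratin gene Krt19 did, with 1 SRSF1 peak. In the series 2155 genes had a named unit, beside 21924 protein-coding genes in GENCODE M21. The marker counts were not tested against that share. Most peaks lay in units without a gene name, so a marker with no named unit is not shown to be unbound.

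All 86 peaks of the locus belonged to a single host unit, a numbered cluster to which the files give no gene name. The name Tcf20 therefore comes from the position. The nearest named units with peaks were Ccdc134, 673 kb below the locus, Rnu12, 237 kb above it, and Arfgap3, 396 kb above it. Tcf20 lies between Ccdc134 and Rnu12 in the order of genes of the RefSeq table (GRCm38.p6), as do other genes, so this order alone does not settle the name. The GENCODE M21 models Tcf20-201 and Tcf20-202, which are on GRCm38, span 103699 and 103482 nt of genome, close to the length of the locus on mm9. The ends of the locus were given together with the name Tcf20 and not measured from the peaks, so this closeness does not bear on the name. The peaks themselves spanned 81410 nt.

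The peaks of the dense window ran from 82681983 to 82687672, a stretch of 5690 nt. From first to last peak, SRSF1 peaks spanned 5274 nt of it, from 82682055 to 82687328, and SRSF2 peaks spanned its full length. The same 2 GENCODE models have 5 and 6 exons, 1 of which is 5772 nt long and holds 5736 nt of coding sequence, 97.3% and 96.2% of their coding length. Only 46 of 21924 protein-coding genes, Tcf20 included, have a coding stretch at least that long within 1 exon, where the median of the longest stretch per gene is 339 nt. The length of the dense stretch was thus within 100 nt of that of the long exon. No mm9 annotation was used, so the exon was not placed on the peaks and no peak was assigned to an exon, an intron or an untranslated region.

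Outside the dense window the locus was nearly empty. The remaining 94501 nt held 0 SRSF1 peaks and 2 SRSF2 peaks, which were also the lowest and the highest peaks of the locus. One, at 82641422 to 82641441 with a score of 9, lay 40.5 kb from the dense stretch on its 3′ side. The other, at 82722813 to 82722831 with a score of 8, lay 35.1 kb from it on the 5′ side. Neither overlapped an SRSF1 peak. With 2 peaks, the SRSF1 share in the rest of the locus was 0% with an interval up to 84.2%, which allows no statement on preference there.

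The density of SRSF1 peaks was 3.9 per kb in the window (2.77 to 5.33). In the rest it was 0, with an exact upper limit of 0.0390 per kb. With 3 peaks put in place of the count of 0, the rest had 0.0317 per kb and the window 123 times that density. With the locus taken from its first to its last peak this ratio was 92.8, so 123 is no lower bound. SRSF2 had 4.5 peaks per kb in the window (3.28 to 6.02) and 0.0212 in the rest (0.00256 to 0.0765), a ratio of 213 with an interval from 55.5 to 1809. This ratio rests on 2 peaks, and since the window was picked for its density the contrast is a description. Within the 5690 nt that carried the peaks, density reached 6.85 SRSF1 and 7.91 SRSF2 peaks per kb.

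The ends of the locus decided the membership of few peaks. Just below the lower end, 343 nt outside, lay an SRSF1 peak at 82638136 to 82638157 with a score of 6, and 2094 nt outside lay an SRSF2 peak at 82636383 to 82636406, also with a score of 6. The authors put both in a nongenic region. Above the upper end, the nearest minus-strand SRSF2 peak was 45337 nt away and the nearest SRSF1 peak 206984 nt away. Within the window, no peak lay near its limits, since the dense stretch began and ended inside.

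Among stranded 10 kb windows, that of Tcf20 ranked second in the series by peaks of both proteins, out of 28002 with a peak. It ranked second in each list taken alone as well, sharing its SRSF1 count with 1 other window. A window with a peak held a median of 2. The window with most peaks, 41 of SRSF1 and 50 of SRSF2, lay on the same strand of the same chromosome at 77590001 to 77600000, in a cluster with no gene name. Its median scores were 15 and 14, and 33 of its SRSF1 peaks (80.5%, 65.1 to 91.2) and 36 of its SRSF2 peaks (72%, 57.5 to 83.8) were overlapped. The windows ranked after that of Tcf20 had 35 SRSF1 and 39 SRSF2 peaks on the plus strand of the mitochondrial chromosome, 38 and 34 on chromosome 17 (plus strand, 39980001 to 39990000), 39 and 30 on chromosome 19 (minus strand, 5790001 to 5800000) and 27 and 39 on chromosome 19 (plus strand, 9070001 to 9080000). Their median scores were at least 19 for SRSF1 and 23 for SRSF2, against 10 for each protein at Tcf20. The rank depended on the grid and the threshold. With the grid moved by 5000 nt, a boundary split the dense stretch and its fuller window ranked 28. When only scores above the upper quartile were kept, which left 19.9% of SRSF1 peaks (scores above 11) and 20.3% of SRSF2 peaks (above 12), it ranked 143.

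**Figure D1:**
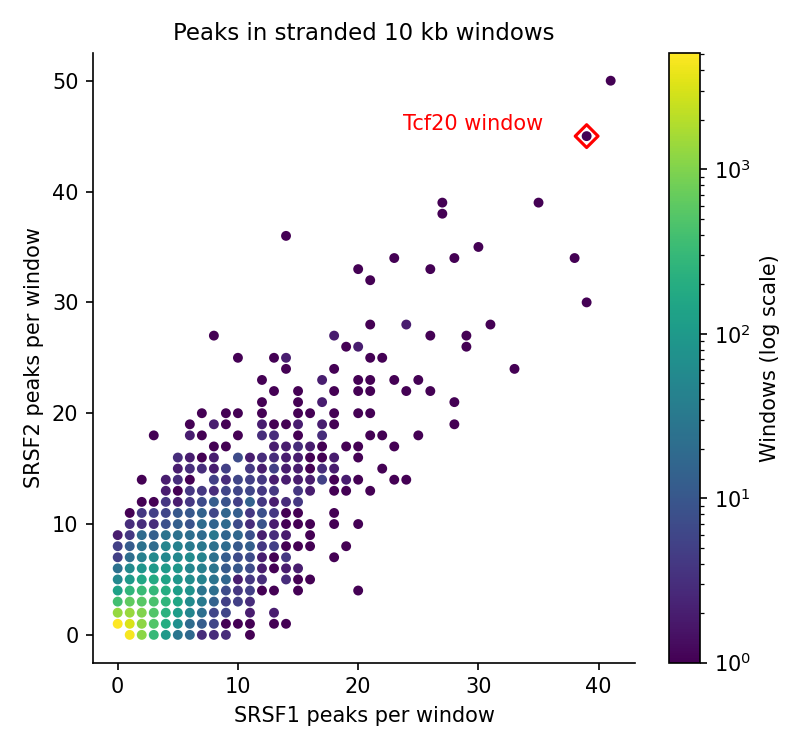
Each point is a combination of the SRSF1 peak number (x axis) and SRSF2 peak number (y axis) found in stranded 10 kb windows, coloured by how many windows had it (log scale). The Tcf20 window (red diamond), at 39 and 45, lies at the upper right, below the window with 41 and 50.

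The concentration of the peaks in a short part of a long unit was the highest among the long host units compared. Over 344 host units with at least 40 peaks spread over at least 50000 nt, the densest 10 kb held a median of 32.3% of the peaks of a unit, with an upper quartile of 40.9%. In the Tcf20 unit, which spanned 81410 nt from first to last peak, it held 97.7%, the highest value of these units. The next highest was 90.0%. The Tcf20 unit passed the 50000 nt minimum only through the 2 SRSF2 peaks outside the window, with scores of 8 and 9. Its other 84 peaks spanned 5690 nt. Units whose peaks all lay within less than 50000 nt were left out of the comparison. The rank therefore rests on these 2 peaks. The locus had been chosen with its density known, so this rank is a description.

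**Figure D2:**
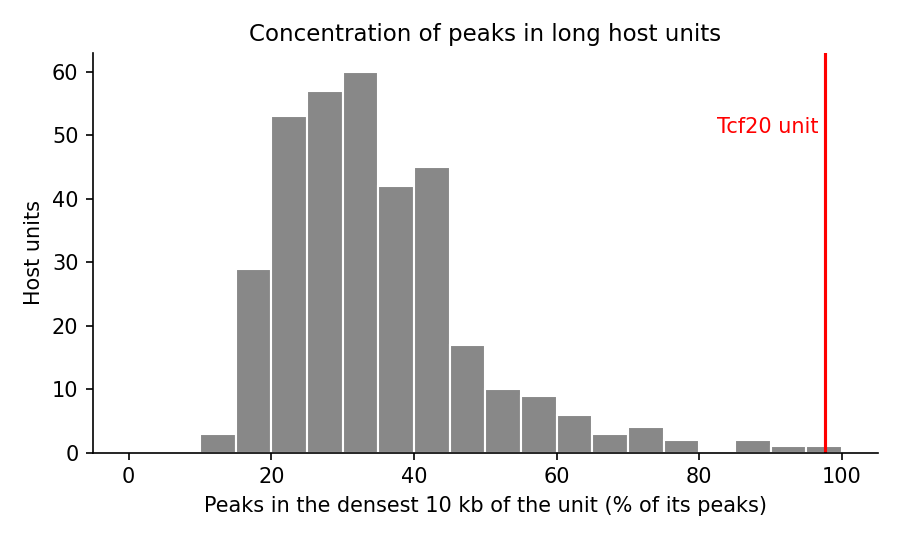
Histogram of the share of a host unit's peaks that fell in its densest 10 kb (x axis, percent) over 344 long host units (y axis, number of units). The red line marks the Tcf20 unit at 97.7%, to the right of the others; the median of all 344 units is 32.3%.

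Peaks of both proteins were spread along most of the stretch, in similar numbers. Of the 38 gaps between neighbouring SRSF1 peaks 8 were of 2 nt or less, against 2 of 44 for SRSF2. Peaks on either side of such a gap were counted separately here, which raises the SRSF1 count more than that of SRSF2. SRSF1 made up 45.3% of the peaks of the locus (34.6 to 56.5) and 46.4% of those of the window (35.5 to 57.6). The rest of chromosome 15 had a share of 47.4% (46.1 to 48.7) and all peaks outside the locus 47.5% (47.2 to 47.8), both inside the interval of the window. Of 2213 windows with at least 10 peaks, 57 had a share whose interval left out that of all peaks, a background of 2.58%, and the Tcf20 window was not among them. Of the 21 windows with at least 50 peaks, 1 did (4.76%), again another window. With 84 peaks in the window, a preference for either protein that lies within its interval was not detectable.

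Read from the 5′ end of the stretch, which is the end with the highest coordinates, the first 1000 nt held 5 SRSF1 and 9 SRSF2 peaks. The next 1000 nt held 8 and 11, and the third 6 and 7. From there SRSF1 was as frequent as SRSF2 or more so, with 8 SRSF1 and 7 SRSF2 peaks in each of the next kilobases and 4 of each in the last 690 nt. The SRSF1 share went from 35.7% (12.8 to 64.9) in the first kilobase to 53.3% (26.6 to 78.7) in each of the 2 kilobases with 8 and 7 peaks, and these intervals overlap widely. Over the 2845 nt at the 5′ end the share was 42.9% (27.7 to 59.0) and over the other 2845 nt it was 50% (34.2 to 65.8), so an uneven distribution was not detectable with these numbers.

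**Figure D3:**
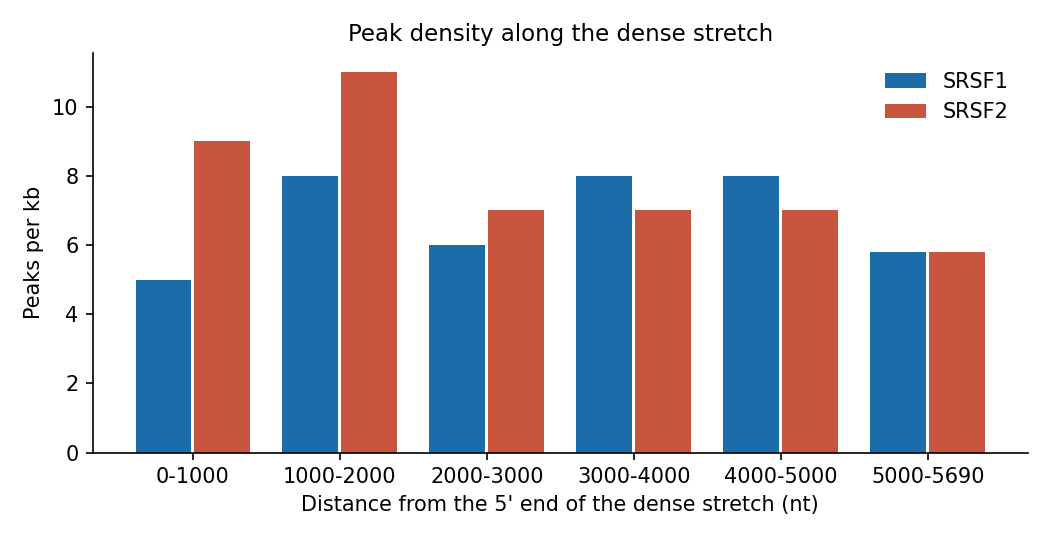
SRSF1 (blue) and SRSF2 (red) peaks per kb in consecutive bins from the 5′ end of the dense stretch (x axis, nt; the last bin is 690 nt long). SRSF2 bars are the taller ones in the first 3 bins, and the proteins are close to equal in the others.

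The peaks were narrow and left most of the stretch free. The median width was 22 nt for SRSF1 and 20 nt for SRSF2, and both ranged from 6 to 43 nt. SRSF1 peaks covered 879 nt, or 15.4% of the stretch, and SRSF2 peaks 895 nt, or 15.7%. Both proteins shared 383 nt, which is 43.6% of the nucleotides covered by SRSF1 and 42.8% of those covered by SRSF2. Thus 43.6% of SRSF1-covered nucleotides were also covered by SRSF2, where SRSF2 covered 15.7% of the stretch as a whole. Neither protein had a peak on 75.6% of the nucleotides.

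About equal numbers of sites carried both proteins or either one alone. When peaks that overlap were joined, 60 sites remained, of which 21 held both proteins, 18 SRSF1 alone and 21 SRSF2 alone. Sites 2 nt or less apart were kept separate. Of the SRSF1 peaks, 21 of 39 were overlapped by an SRSF2 peak (53.8%, 37.2 to 69.9). Of the SRSF2 peaks in the window, 24 of 45 were overlapped by an SRSF1 peak (53.3%, 37.9 to 68.3). With midpoints within 50 nt in place of a shared nucleotide, the SRSF1 share was 79.5%. Keeping only scores above the upper quartile of each list lowered the shares to 20% and 25%, where a partner also had to be in that part of its list.

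Overlap was compared with that of other densely bound windows, because peaks that lie close together meet more easily. These windows were chosen by peaks per 10 kb, so the spacing of peaks was not matched. Their peaks spanned from 3767 to 9902 nt, against 5690 nt at Tcf20. The other 20 windows with at least 50 peaks had 69.2% of their SRSF1 peaks overlapped (65.2 to 73.0) and 60.2% of their SRSF2 peaks (56.3 to 63.9). The Tcf20 values were lower, though their intervals reached these shares, and the difference was not tested. By SRSF1 overlap, 19 of the 20 windows were higher than that of Tcf20, and by SRSF2 overlap 13. Outside the locus, over all peaks, the shares were 38.7% and 35.2%.

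In the window, 24 pairs of peaks overlapped. Their midpoints were a median of 3 nt apart and at most 21 nt, and in 20 pairs they were within 10 nt, where overlap of such narrow peaks by itself limits the distance. The shorter peak lay wholly inside the longer in 16 pairs, while in 0 pairs were both ends identical. The score was higher for SRSF1 in 11 pairs, higher for SRSF2 in 9 and equal in 4. Scores of the lists may be on different scales, so these counts show no preference. Across the 24 pairs the scores had a Spearman rho of 0.0971, given as a description because pairs share a transcript and the libraries, and some share a peak.

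The strongest shared site lay nearer to the 3′ end of the stretch. There an SRSF1 peak at 82683586 to 82683626, with a score of 21, covered an SRSF2 peak at 82683590 to 82683616, with a score of 16. The SRSF1 score is the highest of that protein in the locus. A second site, at 82686018 to 82686049 for SRSF1 and 82686018 to 82686048 for SRSF2, had scores of 14 and 15, and the peaks ended on the same nucleotide at their 3′ side. The third, at 82684267 to 82684299 and 82684256 to 82684298, had scores of 16 and 12. For 3 pairs the smaller score was 11. The SRSF1 peak at 82682646 to 82682678 had a score of 17 against 11 for SRSF2, and that at 82685399 to 82685433 a score of 11 against 18. The scores of the remaining pair, at 82686790 to 82686817 for SRSF1 and 82686786 to 82686804 for SRSF2, were 11 and 12.

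Other strong peaks had no partner. The second-highest SRSF1 peak, at 82682756 to 82682792 with a score of 18, was not overlapped, and the nearest SRSF2 midpoint was 112 nt away. Among SRSF2 peaks, that at 82684135 to 82684164 shared the highest score of 18 and was 87 nt from the nearest SRSF1 midpoint. Another, at 82685676 to 82685709 with a score of 15, was 42.5 nt away. Among the 5 highest SRSF1 peaks, that at 82684785 to 82684808 with a score of 16, overlapped an SRSF2 peak with a score of 9.

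**Figure D4:**
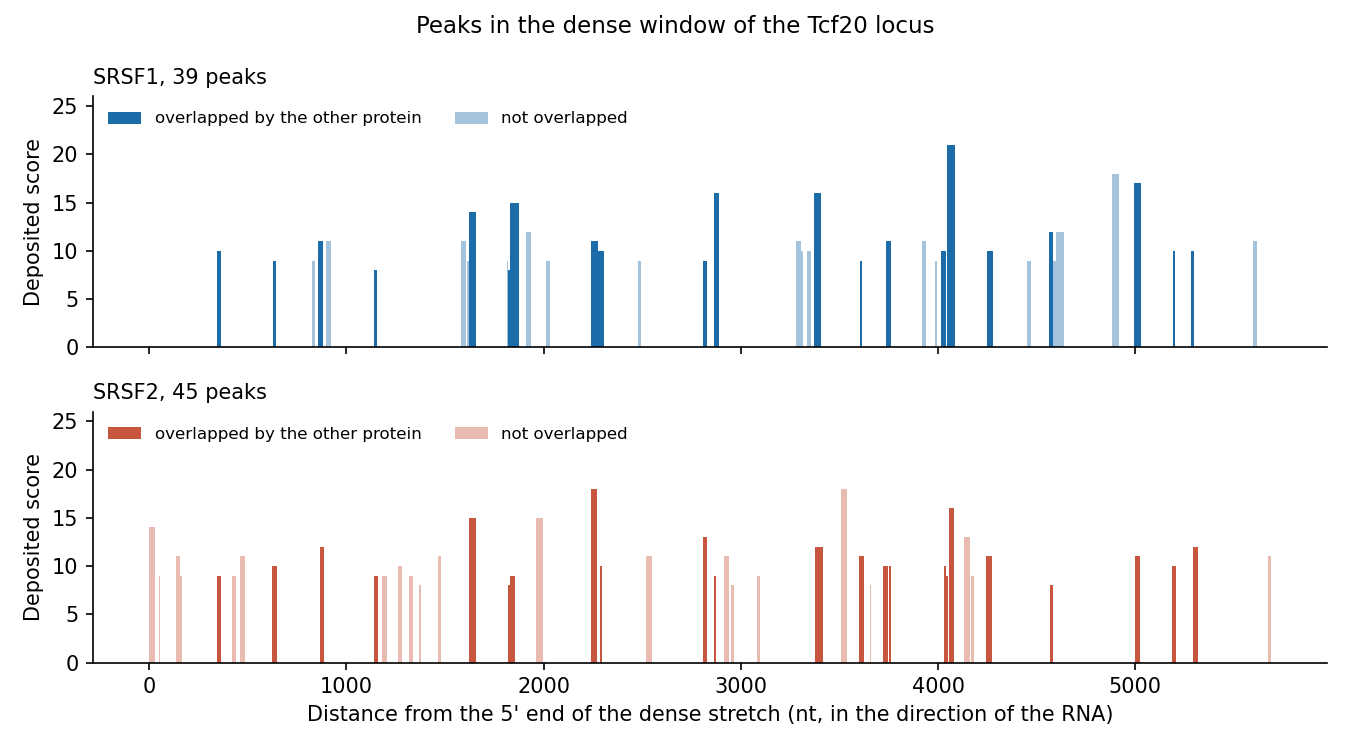
Deposited score (y axis) of each peak, drawn at its width, against the distance from the 5′ end of the dense stretch (x axis, nt) for SRSF1 (above, 39 peaks) and SRSF2 (below, 45 peaks). Dark bars are overlapped by the other protein and pale bars are not; SRSF1 has its highest score, 21, near 4046 nt, where SRSF2 has a score of 16.

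Short runs of the stretch held one protein only. At the extreme 5′ end, 4 SRSF2 peaks within 168 nt, from 82687505 to 82687672 and with scores of 9 to 14, lay beyond the first SRSF1 peak. The longest run without SRSF1 between SRSF1 peaks was 425 nt, from 82686094 to 82686518. It held 5 SRSF2 peaks of 8 to 11 in score and the edge of a sixth. The longest run without SRSF2 was 415 nt, from 82682677 to 82683091, and held 3 SRSF1 peaks with no partner, with scores of 9 to 18. A paired SRSF1 peak at either end also reached into it.

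Some numbered peaks of this unit were absent from the lists, and some of the missing numbers fell in these runs. Peak numbers followed the coordinate. The SRSF1 list had 39 of 45 numbers and the SRSF2 list 47 of 64, so that 13.3% and 26.6% were missing, against 17.6% and 19.9% over all genic units. Of the missing SRSF1 numbers 2 belonged in the 425 nt run without SRSF1, and 1 missing SRSF2 number belonged in the 415 nt run without SRSF2. A run without a listed peak is therefore not shown to be free of the protein. Why those numbers are missing was not tested.

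Many peaks without overlap still had the other protein close by. The nearest SRSF2 midpoint was within 100 nt for 35 of 39 SRSF1 peaks (89.7%) and at most 114 nt away. The nearest SRSF1 midpoint was within 100 nt for 35 of 45 SRSF2 peaks (77.8%) and up to 340 nt away. These counts include the 21 SRSF1 and 24 SRSF2 peaks with overlap, all of which were within 100 nt. Without overlap, 14 of 18 SRSF1 peaks and 11 of 21 SRSF2 peaks were. How much closeness the density of peaks alone would give was not computed. Of the 18 SRSF1 peaks without overlap, 10 had an SRSF2 midpoint within 50 nt, against 4 of the 21 SRSF2 peaks without overlap. There were more SRSF2 than SRSF1 peaks to be near to, and the difference was not tested.

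Scores in the locus lay in a narrow range. They ran from 8 to 21 for SRSF1 and from 8 to 18 for SRSF2, with a median of 10 in both. The lowest score of the unit was 8 in each list, where the lists as a whole begin at 4 and have a median of 8. A lowest score of 8 or more was common among units with at least 30 peaks, at 80 of 191 in the SRSF1 list and 113 of 240 in the SRSF2 list. Scores of at least 15 were found for 6 SRSF1 and 5 SRSF2 peaks, and scores of 9 or less for 13 and 18 in the window. In the other windows with at least 50 peaks the pooled median was 18 in both lists. By the median score, 17 of these 20 windows were above that of Tcf20 for SRSF1 and 18 for SRSF2. The highest SRSF2 score of the Tcf20 window, 18, was equalled in 1 of them and exceeded in 19. The unit thus had many peaks and none of very high score, though scores may not be comparable between units.

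Overlapped peaks and peaks without overlap had the same median score. SRSF1 peaks with an SRSF2 partner had a median score of 10, the same as those without, and the medians of SRSF2 peaks were also 10 with and without a partner. Of the peaks with a score of at least 12, 7 of 10 were overlapped for SRSF1 (70%, 34.8 to 93.3) and 7 of 11 for SRSF2 (63.6%, 30.8 to 89.1). Of those below, 14 of 29 (48.3%, 29.4 to 67.5) and 17 of 34 (50%, 32.4 to 67.6) were. Peaks of higher score were also wider, with a Spearman rho between score and width of 0.782 over 39 SRSF1 peaks and 0.748 over 45 SRSF2 peaks, again as a description. The part of peak width in the overlapped shares was not tested.

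**Figure D5:**
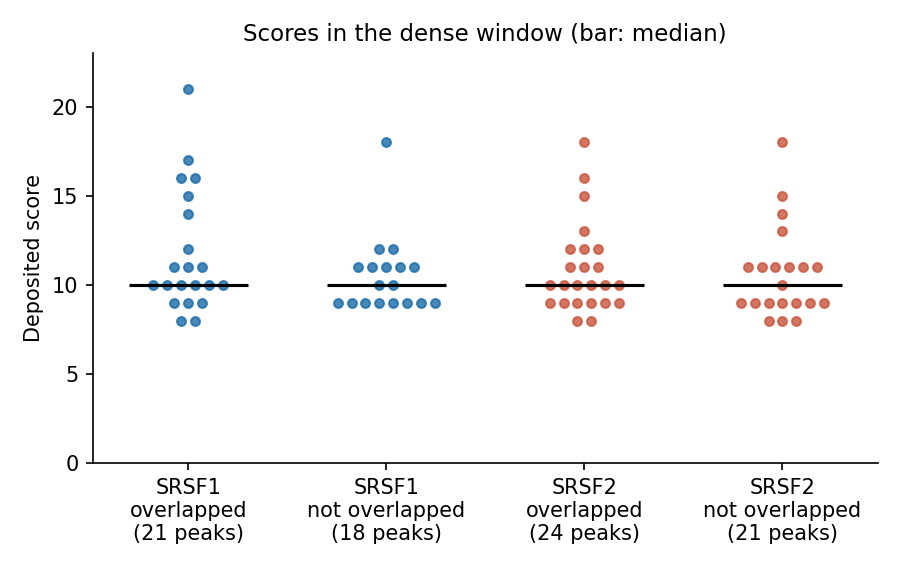
Deposited score (y axis) of each peak in the dense window by protein and by whether the other protein overlapped it; each point is 1 peak and the bar is the median. All 4 medians are 10, and the highest SRSF1 score of 21 is in the overlapped group.

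Of 54 named genes with at least 40 peaks, 3 were nearest to the Tcf20 locus by the distance, in percentage points, over the SRSF1 share and the overlapped shares of both proteins. Washc4, a subunit of the WASH complex of endosomes, had 26 SRSF1 peaks with 14 overlapped and 31 SRSF2 peaks with 15 overlapped, at a distance of 2.69. Snd1, an RNA-binding Tudor domain protein, had 28 and 30 peaks with 15 of each overlapped, at 3.13. Ubp1, a transcription factor, had 24 and 29 with 14 and 15 overlapped, at 4.54. Their peaks extended from 83009556 to 83058036 on chromosome 10, from 28430401 to 28838340 on chromosome 6 and from 113840791 to 113885759 on chromosome 9. The likeness is over 2 libraries and 3 values.

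Proteins that act with TCF20, or genes linked to it, could be followed only where their unit carried a RefSeq name. Of a list of 16, which included the related Rai1 and the transcription factors Jun, Ets1 and Sp1, only Sqstm1 had a named unit with peaks. Sqstm1, which encodes the autophagy receptor p62, had 10 SRSF1 peaks with 4 overlapped and 11 SRSF2 peaks with 3 overlapped. Of 17 genes from the surroundings of Tcf20 on chromosome 15, Arfgap3, a regulator of Golgi vesicle traffic, had 8 and 10 peaks with 6 of each overlapped. Named units were few in general, with 2155 genes beside 21924 protein-coding genes in GENCODE M21. The 1 of 16 and 1 of 17 found here are therefore no result about partners or neighbours. The other genes of both lists may have peaks in units without a name.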

How the data were processed

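CLIP-seq peaks of SRSF1 and SRSF2 in MEFs were analysed from 1 peak list per protein, 1 library each. The submitters' processing notes name mm9 as the build; positions are printed 1-based. The authors deposited a score with each peak, a whole number. Neither its meaning nor the aligner and peak caller is stated in the sources used here. Scores were used within a list only, except that overlapping pairs were ranked by the smaller of both scores and their scores were set side by side as a description. The authors' host units were kept as named. Gene symbols came from RefSeq (GRCm38.p6) and exon lengths from GENCODE M21, without coordinates of that build; 2155 of 2169 RefSeq accessions matched.

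Peaks on the same strand were taken to overlap from 1 shared nt. Windows of 10 kb were stranded and took peaks by midpoint. Python 3.11.15, pandas 2.3.3 and scipy 1.17.1 were used. The overlap step was checked against bedtools 2.31.1 on the real lists and tested on simulated data. The simulated peaks were moved by a few nt or put on an empty chromosome, so closely spaced peaks were not tested there. With 1 library per protein no test or p-value was computed. Genes and peaks were named by a rule: Tcf20, the 5 other windows with most peaks, genes with most similar values, members of the lists with a named unit, the 5 highest-scoring peaks of each protein, the 5 strongest pairs and the peaks at the ends. The locus, the window and the lists were chosen with earlier results of these data known. No sequence is shown, because no mm9 genome was used.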

Additional observations from a re-analysis of the deposited data

How the results depend on the processing

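Of 86 alternatives over 16 results, 67 left the value within its interval or within 1.5 times and 19 moved it further. The 67 include settings that could not move a value, since keeping the main host unit alone left out no peak of the locus. Joining touching peaks also left every value as it was. The SRSF1 share in the rest was judged against an interval of 0 to 84.2%, so 37.5% counted as unmoved. The tally is therefore no measure of robustness. Whether a direction was reversed was not scored. The upper 50% by score means scores above 8, which kept 40.9% of SRSF1 and 49.0% of SRSF2 peaks. The upper 25%, chosen after seeing the data, means scores above the upper quartile and kept 19.9% and 20.3% of the lists. It left 10 SRSF1 and 8 SRSF2 peaks in the locus and lowered the overlapped shares to 20% and 25% and the rank of the window to 143. The SRSF1 share in the locus, 45.3% over all its peaks, was then 55.6%, so SRSF1 peaks became the more numerous, though within the interval. A window of 5000 nt gave 7.2 SRSF1 and 7.6 SRSF2 peaks per kb and one of 20000 nt gave 1.95 and 2.25. The narrower window cuts the stretch and the wider one is filled by it only in part. The SRSF1 density was 239 times that of the rest with 5000 nt. With 20000 nt it was 54.9 times, where 3 peaks again stood in place of a count of 0, so it is no lower bound. The SRSF2 ratio was 378 in the upper 50%, 64.6 and 79.4 with the window moved 2500 nt down and up, 84.0 with 5000 nt and 95.1 with 20000 nt, because it rests on few peaks in the rest. The SRSF1 overlapped share was 79.5% for midpoints within 50 nt and also with every peak set to 50 nt. A grid moved by 5000 nt split the stretch and gave rank 28. No paired analysis was possible because each protein had 1 library, and for the same reason none could be left out. Read depth is unknown, and intervals cover counting error only.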
